A study of Rattus norvegicus with 20 samples.

Results

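The sprouting neurons of 5 rats labelled day 21 were compared with those of 5 other rats labelled day 7, the day on which a second tracer followed the first. The labels call a cortical neuron sprouting or non-sprouting after a stroke, and both kinds were captured from each of 10 rats aged 2 months. Each array held the 2 cell types of 1 rat in 2 colours, and each rat had 2 arrays with the dyes swapped. The sprouting level was therefore read from Cy5 (the red dye) on arrays not titled as a dye swap and from Cy3 (the green dye) on those that were. Of the 20 levels of a cell type in an animal that the series holds, these are 10, from both arrays of every animal, and no measured value was used to choose them. In both groups cholera toxin B coupled to Alexa 488 went into the cortex beside the infarct, and cholera toxin B coupled to Alexa 647 followed at the same place after 7 days in 1 group and 21 days in the other. Cells were cut out by laser 7 days after the second tracer, about 300 of each type. Their RNA was amplified in 2 rounds with T7 polymerase, converted by reverse transcriptase with amino-allyl nucleotides and coupled to the dyes. The groups were separate cohorts, had a stroke in common and included no rat without one. The sources used here do not give the strain.

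After a stroke, neurons of the spared cortex near the infarct can send new axon branches to areas that lost their input, a process called axonal sprouting. A tracer taken up by axon ends is carried back to the cell body, so tracers given early and late at the same place can mark neurons whose axons reached that place in the interval. Such growth is known to involve growth cone proteins, guidance cues and inhibitors in myelin and matrix, in a tissue that also goes through inflammation and glial reaction.

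Levels are log2 of the normalized spot intensity, and a difference is the day 21 mean minus the day 7 mean. Of 32178 genes tested with limma, 0 passed a Benjamini-Hochberg adjusted p of 0.05 (0% called), and 0 passed at 0.1. The smallest adjusted p was 0.18. An unadjusted p under 0.05 was reached by 2885 genes, of which 812 were higher at day 21 (2.52% of those tested) and 2073 lower (6.44%), beside 1609 that make up 5% of the genes tested. Genes whose 5 day 21 animals all lay beyond all 5 day 7 animals numbered 73 on the higher side (0.227%) and 407 on the lower side (1.26%). Over all genes the median difference was -0.05, and 58.4% were lower at day 21. With only probes well above background on all arrays of a day, 21500 genes remained. Their median difference was -0.11, 66.6% were lower, and 1803 were lower at an unadjusted p under 0.05. The shares over all genes set beside the lists below thus also depend on how bright the genes are. In data simulated for this comparison with 32150 genes the fit recovered 58% of genes set to change by 1 on the log2 scale and 86% of those set to change by 2. The simulation changed 50 genes per size and gave each gene independent noise. It held no shifts shared across genes, so these shares need not hold for the measured data. All values below describe genes that did not pass the correction unless a subset of arrays is named. In RNA of pooled cells, fewer cells of a type and less RNA per cell cannot be told apart.

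The 2 arrays of an animal did not always give the same level, and this touches every result below. Across genes, each gene's deviation from its mean over the 20 arrays was correlated between the arrays of an animal. Pearson's r reached 0.90, 0.90, 0.75, 0.39 and 0.53 for day 7 replicates 1 to 5, and 0.64, 0.30, 0.10, -0.32 and 0.57 for those of day 21. The low values lay in both channels of an array together: the mean of the channels correlated at 0.20 in day 21 replicate 2 and at 0.015 in replicate 3, while their ratio of sprouting over non-sprouting correlated at 0.74 and 0.69. In day 21 replicate 4 the ratio, turned as the titles say, correlated at -0.36, which goes against the labels of its dyes. The mean of this animal's channels, which is the same whichever dye holds which cell type, correlated at -0.27. The cause was not tested. Without that animal 0 genes passed, with 982 higher and 2372 lower by unadjusted p. With the 10 arrays that hold sprouting RNA in Cy5, 0 genes passed the adjusted p, and the unadjusted counts were 278 higher and 502 lower. With the 10 dye-swapped arrays, which hold it in Cy3, 1141 genes passed, 454 higher and 687 lower. Of these 687 genes 675 were also lower on the Cy5 arrays, by a median of -0.30 against -0.73 on the Cy3 arrays. Of the 454 higher ones 366 were also higher there, by a median of 0.22 against 1.29. Both sets hold the same RNA of the same animals. The sets differ in array and in the dye of the sprouting RNA, and the non-sprouting RNA lay in the opposite dye. For the non-sprouting RNA 924 genes passed on the dye-swapped arrays, where it lay in Cy5, and 0 on the other arrays. More genes thus passed on the dye-swapped arrays in both dyes, and the cause was not tested. Differences on each set are given beside the leading genes, and each set is named by the dye of its sprouting RNA.

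**Figure D1:**
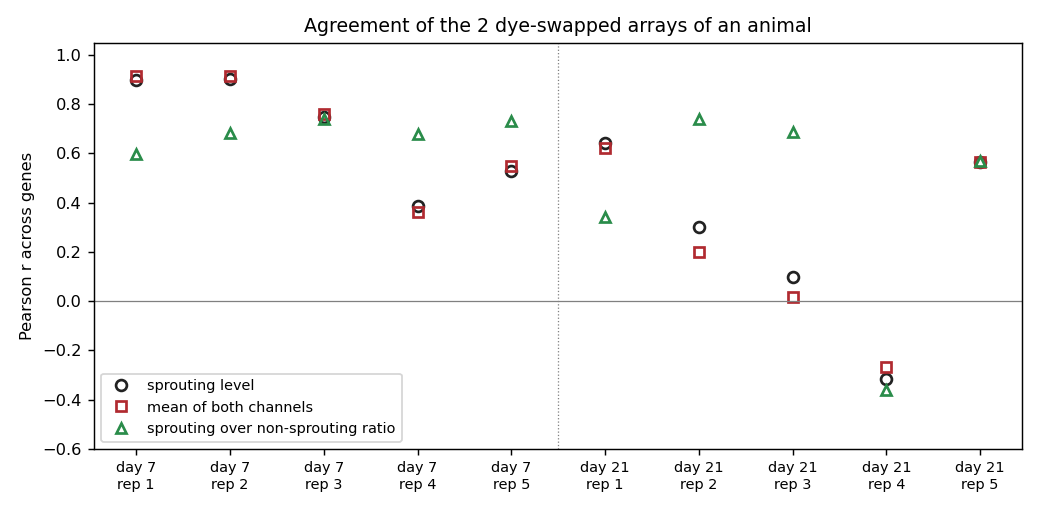
Pearson r across 32178 genes between the 2 dye-swapped arrays of each of the 10 animals, for the sprouting level, the mean of both channels (each as deviation from the gene's mean over 20 arrays) and the sprouting over non-sprouting ratio. The ratio correlated at 0.34 or more in 9 animals, while the levels of day 21 replicates 2, 3 and 4 lay at 0.30 or less.

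Scan days taken from the scanner files also differed between the groups. Both arrays of day 7 replicates 1 and 2 were scanned on days with no day 21 array, while the other 8 animals shared 3 scan days. Without these 2 animals, an alternative added after the data were seen, 0 genes passed, and 244 higher and 1098 lower genes were counted by unadjusted p. Median spot signal of the sprouting channel averaged 193.6 units at day 7 and 174.5 at day 21, and 81.2% and 77.7% of probes lay well above background. Of 8 such measures of signal and spread, the smallest p-values in an exact two-sided permutation test (n = 5 per day) were those of the second principal component and of the correlation between an animal's arrays. The second component averaged 17.8 at day 7 and -17.8 at day 21 (exact permutation p = 0.0397, adjusted p = 0.254 over the 8). The correlation averaged 0.69 and 0.26 (exact permutation p = 0.0635, adjusted p = 0.254). With 5 against 5 the smallest exact p is 0.00794, so a single measure could not pass after correction. All 14 neuron markers tested lay well above background on every array, with a median difference of -0.02 between days. When each channel was centred on its median it was -0.35, with 13 of 14 lower, beside 65.5% of all genes. Snap25, a synaptic vesicle fusion protein, stood at 15.29 ± 0.16 and 14.70 ± 0.59, and Gap43 at 14.99 ± 0.14 and 15.18 ± 0.27 (day 7 and day 21, SD, n = 5 each). The Snap25 probe was saturated on 2 day 7 arrays and that of Gap43 on 1 array of each day, so these levels are lower bounds there. Markers of glia were measured too, as 17 of 20 oligodendrocyte and 17 of 20 astrocyte markers lay well above background on every array. Lying above background therefore does not set neurons apart from glia here.

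The 5 smallest p-values belonged to genes that were lower at day 21, with limma's adjusted p = 0.18 each, and the 4 of them with a current symbol are Poc5, Hbb, Abhd3 and Plekhf2. Poc5, a centriole protein, stood at 8.96, 8.98, 8.94, 9.20 and 8.96 in the day 7 animals and at 8.37, 8.23, 8.24, 8.28 and 7.92 in the day 21 animals, replicates 1 to 5 in order. The groups did not overlap, which was a condition for every gene named here by p or by size, and day 7 replicate 4 stood above its own group. The difference was -0.80 ± 0.11 (SE; 1.74-fold), with -0.67 on the Cy5 arrays and -0.93 on the Cy3 arrays. Abhd3, a phospholipase, was nearly constant at day 7, at 9.16, 9.17, 9.18, 9.15 and 9.15. At day 21 it spread over 8.23, 7.89, 8.57, 8.41 and 8.08. Its difference was -0.92 ± 0.13 (SE; 1.90-fold), with -0.72 and -1.13 on the Cy5 and Cy3 arrays. Plekhf2, which binds a phosphoinositide on endosomes, was at 9.48, 9.44, 9.47, 9.60 and 9.66 against 8.74, 8.81, 9.0, 8.91 and 8.70. It differed by -0.70 ± 0.10 (SE), but a dimmer probe of the same gene gave -0.08. For Poc5, Abhd3 and Plekhf2 the animals of the 2 days did not overlap on either set of arrays. Without day 21 replicate 4 these 3 differed by -0.82, -0.97 and -0.72.

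The genes next on the lower side by p have varied known functions. Hs3st1, which sulfates heparan sulfate chains, was at 8.93, 8.98, 8.54, 8.74 and 8.65 at day 7 and at 7.6, 7.66, 7.66, 7.96 and 8.30 at day 21. Its difference was -0.93 ± 0.16 (SE; limma adjusted p = 0.354), and the highest day 21 animal stayed below the lowest day 7 animal. Psd3, an exchange factor for the small GTPase Arf6, differed by -0.86 ± 0.15 (SE) with no overlap on either array set, and day 21 replicate 4 stood highest of its group at 7.70. Ndp, a secreted ligand of the Wnt pathway's Frizzled receptor, differed by -0.77 ± 0.12 (SE), with another probe at 0.30. Cd9, a tetraspanin, gave -0.66 ± 0.12 (SE), -0.39 on the Cy5 and -0.94 on the Cy3 arrays. Wwp1, a ubiquitin ligase, gave -0.66 ± 0.12 (SE) and -0.60 and -0.71 on the array sets. For Hs3st1, Psd3, Ndp, Cd9 and Wwp1 the dye-swapped arrays alone passed limma's adjusted p (0.0274 for Ndp and Cd9, 0.0286 for Hs3st1 and Psd3, 0.0313 for Wwp1). The Cy5 arrays alone gave an adjusted p of 0.9997 for each of the 99 genes named by rule.

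Fewer genes were higher at day 21, and a synaptic organizer led them. C1ql3, a secreted C1q-like protein that bridges synaptic contacts, was at 12.08, 11.58, 12.53, 12.09 and 12.11 at day 7. At day 21 it was at 12.91, 13.09, 12.97, 12.71 and 13.31, so that all 5 lay above the highest day 7 animal, replicate 3. The difference was 0.91 ± 0.18 (SE; 1.89-fold, limma adjusted p = 0.354), with 0.77 on the Cy5 and 1.06 on the Cy3 arrays. Within the 3 scan days that both groups share, each animal placed by its first array, it was 0.28, 0.91 and 1.21. Without day 21 replicate 4 it was 0.99. Nsf, the ATPase that takes apart spent SNARE complexes, was at 7.73, 7.71, 8.11, 8.36 and 7.75 against 9.54, 8.73, 8.58, 8.73 and 8.60. Its groups did not overlap, day 21 replicate 1 stood well above the rest, and the difference was 0.90 ± 0.21 (SE, limma adjusted p = 0.371). Mns1, a protein of cilia and flagella, was at 6.95, 7.11, 7.11, 7.10 and 7.20 against 7.51, 8.23, 7.64, 7.70 and 7.73. It lies near the background, with 8 of 10 arrays of each day well above it, and differed by 0.67 ± 0.14 (SE).

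The remaining genes taken by p on the higher side have varied known functions. Eif3g, a subunit of translation initiation factor 3, stood at 9.85 ± 0.18 and 10.32 ± 0.13 (SD, n = 5 per day), a difference of 0.47. Ftsj3, which processes ribosomal RNA, differed by 0.53, Sap30bp by 0.49, Snu13, a protein of small nucleolar and spliceosomal RNA particles, by 0.36, Tsr3, a ribosome maturation enzyme, by 0.34, and Trmt5, a tRNA methyltransferase, by 0.32. Rfc3, of the clamp loader of DNA replication, gave 0.36, Ssx2ip, a centrosomal protein, 0.34, and Mnat1, of the CDK-activating complex, 0.31. None of these 9 passed (limma adjusted p from 0.405 to 0.541), and Ssx2ip, Mnat1 and Trmt5 changed sign when each channel was centred on its median. That scaling moved the median of all genes to -0.11.

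**Figure D2:**
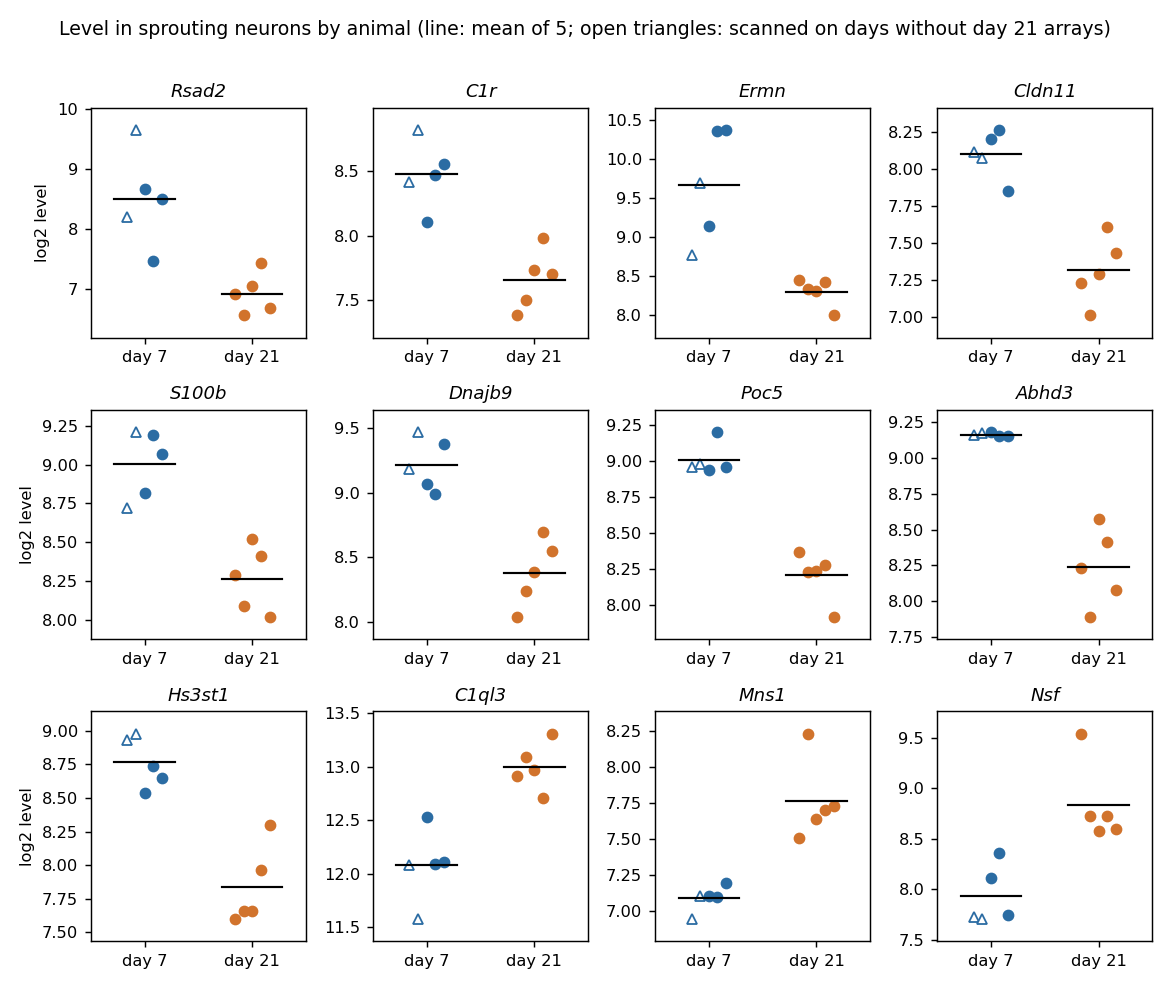
Log2 level of 12 genes in sprouting neurons, 1 point per animal (mean of its 2 arrays), with the mean of 5 animals as a line and open triangles for the 2 day 7 animals scanned on days without day 21 arrays. The animals of the 2 days did not overlap in any of the 12. Lack of overlap was a condition for naming genes by p or by size, so it is no separate result for those. The scale differs between panels.

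Markers of oligodendrocytes, the myelin-forming glia, were lower at day 21 as a group. Of 20 markers tested 17 were lower and 3 higher, 13 of them lower at an unadjusted p under 0.05, beside 58.4% and 6.44% over all genes. Their median difference was -0.62 against -0.05 over all genes, -0.53 on the Cy5 arrays and -0.73 on the Cy3 arrays. Ermn, a cytoskeletal protein of late oligodendrocytes, was at 8.76, 9.69, 9.14, 10.36 and 10.37 at day 7 and at 8.44, 8.33, 8.30, 8.42 and 7.99 at day 21. Day 7 replicates 4 and 5 were the highest and the day 21 animals lay close together, and the difference was -1.37 ± 0.30 (SE; 2.58-fold, limma adjusted p = 0.371). Cldn11, the tight junction protein of myelin, was at 8.11, 8.07, 8.20, 8.26 and 7.85 against 7.23, 7.01, 7.29, 7.61 and 7.43. It differed by -0.79 ± 0.13 (SE), with no overlap between the groups, and by -0.58 and -1.0 on the Cy5 and Cy3 arrays. Pllp, a myelin membrane protein, gave -0.89 ± 0.19 (SE), with day 7 replicate 3 low in its group at 7.93. Mbp and Mog, myelin proteins also on the list of growth-inhibitory genes, gave -0.80 and -0.76, each with a further probe at -0.69 and -0.67, and their groups overlapped. Lpar1, a lysophosphatidic acid receptor taken for its size, gave -1.25 ± 0.33 (SE), with other probes at -1.07 and -0.74. Cnp, Mag, Fa2h and Gjb1, also markers of these cells, lay between -0.07 and 0.12.

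The animal medians of the oligodendrocyte list, each marker taken relative to its mean of 10 animals, were 0.09, 0.21, -0.13, 0.56 and 0.64 at day 7. At day 21 they were -0.07, -0.51, -0.28, -0.23 and -0.38. Day 7 replicate 3 fell among the day 21 animals, and replicates 4 and 5 carried the highest values. Without day 7 replicate 4 or 5 the median difference was -0.52 or -0.50, and 17 or 18 of the 20 markers were lower. In the non-sprouting neurons of the same animals the list's median difference was -0.31, with 15 of 20 lower. Oligodendrocyte markers thus stood lower at day 21 beside the other results given here, and their part in those was not tested.

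Astrocyte markers were lower too. Of 20 tested 18 were lower (90%, beside 58.4% over all genes) and 2 higher, and 8 were lower at an unadjusted p under 0.05 (40%, beside 6.44%). The median difference was -0.36 (-0.30 on the Cy5 and -0.38 on the Cy3 arrays, and -0.67 with each channel centred on its median). S100b, a calcium-binding protein, was at 8.72, 9.21, 8.82, 9.19 and 9.07 at day 7 and at 8.29, 8.09, 8.52, 8.41 and 8.02 at day 21. The groups did not overlap, and the difference was -0.74 ± 0.14 (SE; 1.67-fold, limma adjusted p = 0.354). Slc1a3, a glial glutamate transporter, gave -0.38 ± 0.13 (SE), with another probe at -0.61, and Glul, glutamine synthetase, gave -0.68, with other probes at -0.09 and -0.88. Gfap, the intermediate filament of reactive astrocytes, differed by -0.21 and Aqp4, a water channel, by 0.55. Day 7 and day 21 medians of the list overlapped in 1 animal each, at 0.0072 in day 21 replicate 1 and -0.0044 in day 7 replicate 3. Other probes of these genes had the sign of the probe used in 7 of 9 cases, as in 7 of 8 for the oligodendrocyte list.

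Genes of inflammation and the interferon response stood lower at day 21 in 41 of 51 cases (80.4%, beside 58.4% over all genes). Among the 51, 12 were lower (23.5%, beside 6.44%) and 0 higher at an unadjusted p under 0.05. Their median difference was -0.26 (-0.19 on the Cy5 and -0.23 on the Cy3 arrays), and the animal medians of the days did not overlap, at -0.06 to 0.34 against -0.22 to -0.07. Without day 7 replicate 2, which had the highest median, the difference was -0.12, and without both day 7 animals scanned apart it was -0.12 with 34 of 51 lower. In the non-sprouting neurons it was -0.10, with 36 of 51 lower. Rsad2, an interferon-induced antiviral enzyme, was at 8.20, 9.64, 8.67, 7.47 and 8.50 at day 7 and at 6.92, 6.57, 7.05, 7.43 and 6.69 at day 21. Day 7 replicate 4 came closest to the day 21 animals, whose highest was replicate 4, and day 7 replicate 2 was the highest of all. The difference was -1.57 ± 0.34 (SE; 2.96-fold, limma adjusted p = 0.371), -1.40 on the Cy5 and -1.73 on the Cy3 arrays, while a dimmer probe of the gene gave -0.17. C1r, a protease that starts the classical complement cascade, was at 8.42, 8.82, 8.11, 8.47 and 8.56 against 7.38, 7.5, 7.73, 7.98 and 7.70. It differed by -0.82 ± 0.16 (SE; 1.77-fold, limma adjusted p = 0.354), and the groups did not overlap. Mx2 (-0.89), Oas1a (-0.83), Isg15 (-0.73), Ifit2 (-0.59) and Irf7 (-0.53), all genes of the interferon response that were picked here after their values were seen, were lower as well. The interferon-induced Mx1 and Oasl stood at 0.45 ± 0.49 and 0.54 ± 0.41 (SE). The early cytokines Il1b, Tnf and Il6 differed by 0.25, 0.09 and 0.02.

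Promoters of this list are shown because most members differed in one direction and interferon acts through a known DNA element. The interferon response element was searched as GAAA, 2 bases of any kind and GAAA, or TTTC, 2 such bases and TTTC on the other strand, in the 250 bases before each start site, with RefSeq starts of GRCr8. Of 51 members 38 matched a promoter, and 10 of these (26.3%) held the letters, against 3.61% of 27457 genes. All 10 were lower at day 21, with a median difference of -0.57, while the 28 without the letters had a median of -0.12 with 20 lower. A match is a description of letters and not of a bound site, and the list was chosen with earlier results of these data known. It was written to hold interferon genes, so a share above that of all genes follows from its making. The 10 and the 28 are parts of a list already given as lower, so their split is no separate support. The 10 are Rsad2, Oas1a, Gbp2, Cxcl10, Vcam1, Irf7, B2m, Myd88, Ifit3 and Tap1, from -1.57 to -0.04. Cxcl10, a chemokine that interferon induces, differed by -0.74 and Oas1a, a sensor of double-stranded RNA, by -0.83. Their promoters follow, 5′ to 3′ on the gene's strand, with the element in capitals.
Rsad2, chr6:48788121-48788370, minus strand: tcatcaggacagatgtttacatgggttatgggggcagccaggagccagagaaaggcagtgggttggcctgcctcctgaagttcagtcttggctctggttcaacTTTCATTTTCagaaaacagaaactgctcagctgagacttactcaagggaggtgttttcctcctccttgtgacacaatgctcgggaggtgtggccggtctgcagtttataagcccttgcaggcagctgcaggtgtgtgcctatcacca
Oas1a, chr12:41330216-41330465, plus strand: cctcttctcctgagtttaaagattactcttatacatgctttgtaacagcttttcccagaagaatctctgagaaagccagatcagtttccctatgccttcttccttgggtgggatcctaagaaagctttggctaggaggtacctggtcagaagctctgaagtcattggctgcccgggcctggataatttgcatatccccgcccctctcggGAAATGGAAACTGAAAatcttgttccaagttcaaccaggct
Cxcl10, chr14:15988816-15989065, plus strand: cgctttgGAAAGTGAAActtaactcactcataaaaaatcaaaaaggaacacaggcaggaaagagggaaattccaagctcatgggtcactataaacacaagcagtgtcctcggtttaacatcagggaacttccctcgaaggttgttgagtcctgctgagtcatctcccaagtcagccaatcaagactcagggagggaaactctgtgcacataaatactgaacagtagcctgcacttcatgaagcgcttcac
In Oas1a 2 matches overlap, the first at -41 from the start, in Cxcl10 the match begins at -243 from it, and in Rsad2 at -147 on the reverse strand.

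Genes of the unfolded protein response, by which cells meet misfolded protein in the endoplasmic reticulum, went both ways. Lower were 16 of 27 (59.3%, beside 58.4% over all genes), with a median difference of -0.04. With centred channels 20 of 27 were lower, beside 65.5% of all genes, with a median of -0.23. Dnajb9, a partner of the chaperone BiP, was at 9.18, 9.47, 9.07, 8.99 and 9.38 at day 7 and at 8.04, 8.24, 8.39, 8.70 and 8.55 at day 21. The groups did not overlap, and the difference was -0.84 ± 0.15 (SE; 1.79-fold, limma adjusted p = 0.354), with -0.65 and -1.03 on the Cy5 and Cy3 arrays and -0.20 for a dimmer probe. Sdf2l1 gave -0.66 ± 0.17 (SE) and Ddit3, the transcription factor CHOP, -0.36. Canx and Calr, the lectin chaperones calnexin and calreticulin, were higher, by 0.66 and 0.53, and Hspa5, which encodes BiP itself, differed by -0.04. Canx, Calr, Ddit3 and Hspa5 were picked after their values were seen.

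The endoplasmic reticulum stress element, searched as CCAAT, 9 bases of any kind and CCACG on both strands, was in the 250 bases before the start of 6 of the 23 members with a promoter, against 0.0765% of all 27457 genes. These 6 are Hspa5, Hsp90b1, Calr, Canx, Dnajc3 and Creld2, with differences from -0.22 to 0.66 and a median of 0.24. The 17 without the letters had a median of -0.08, with 12 lower. This list too was written from known genes of the response, so a share above that of all genes follows from its making. The promoters of Calr and Canx are printed with the element in capitals, on the reverse strand in Calr.
Calr, chr19:40213117-40213366, plus strand: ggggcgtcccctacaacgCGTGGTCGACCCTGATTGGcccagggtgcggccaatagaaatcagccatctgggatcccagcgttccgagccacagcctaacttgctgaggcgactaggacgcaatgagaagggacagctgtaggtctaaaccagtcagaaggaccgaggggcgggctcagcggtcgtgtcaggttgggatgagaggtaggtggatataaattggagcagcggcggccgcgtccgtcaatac
Canx, chr10:35157858-35158107, minus strand: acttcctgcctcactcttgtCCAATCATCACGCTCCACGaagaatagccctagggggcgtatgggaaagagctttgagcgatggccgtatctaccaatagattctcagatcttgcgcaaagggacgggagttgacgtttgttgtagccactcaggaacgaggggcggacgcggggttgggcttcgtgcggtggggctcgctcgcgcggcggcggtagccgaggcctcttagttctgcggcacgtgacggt
The element is absent as written from the same window of Dnajb9, which says nothing of the factors that bind there.

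**Figure D3:**
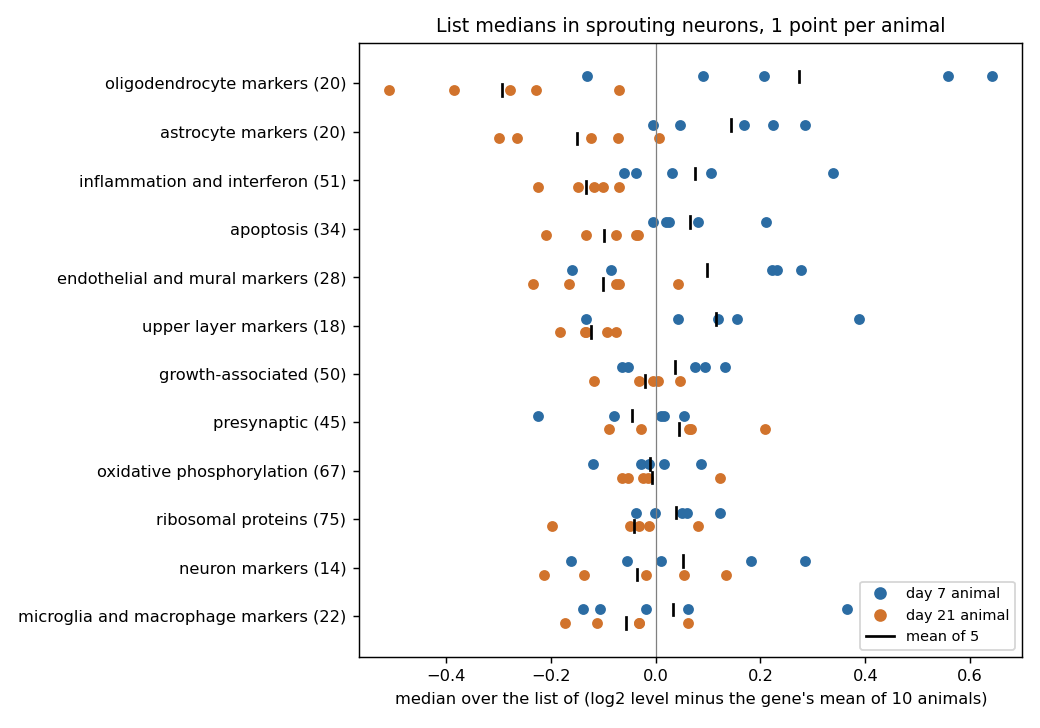
Median over each list of the log2 level minus the gene's mean of 10 animals, 1 point per animal with the mean of 5 as a black tick, for 12 lists with the number of genes tested in brackets. Day 7 and day 21 animals do not overlap in the inflammation and interferon list and the apoptosis list, and the oligodendrocyte list has the widest spread, from -0.51 to 0.64.

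Genes of the cell death machinery were lower in 28 of 34 cases, 4 at an unadjusted p under 0.05, which are 82.4% and 11.8% beside 58.4% and 6.44% over all genes. The median difference was -0.14 (-0.08 on the Cy5 and -0.22 on the Cy3 arrays, and -0.31 with centred channels). Their animal medians did not overlap between days. In the non-sprouting neurons of the same animals the list's median difference lay further below 0, at -0.20. There 27 of 34 were lower, 9 of them at an unadjusted p under 0.05. Hrk, a neuronal activator of apoptosis, was at 9.20, 8.63, 8.64, 8.53 and 9.32 against 8.10, 8.36, 8.36, 8.49 and 8.08, a difference of -0.59 ± 0.18 (SE, limma adjusted p = 0.464). Casp2, an initiator caspase, differed by -0.50 ± 0.16 (SE). Only 5 of the 15 other probes of this list's genes had the sign of the probe used, and the other probe of Hrk gave 0.12.

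Blood markers went both ways, with 7 of 11 lower (63.6%, beside 58.4% over all genes) and 4 higher. Of the 11, 2 were lower at an unadjusted p under 0.05 (18.2%, beside 6.44%), and the median difference was -0.13. Both of these 2 are globins, and a further globin was taken for its size. Hba-a3, an alpha globin, was at 13.15, 13.02, 12.80, 13.63 and 13.51 against 12.58, 10.93, 10.47, 12.05 and 12.75, and differed by -1.47 ± 0.42 (SE; 2.76-fold). Day 21 replicates 2 and 3 were far below the others. The probe named Hbb differed by -0.72 ± 0.10 (SE, limma adjusted p = 0.18) and that of Hbb-b1 by -0.94 ± 0.28 (SE), the latter saturated on 3 day 7 arrays and 1 day 21 array, so that its difference is not measured exactly. Globin genes are near-identical copies, so a probe may bind several of them. Endothelial and mural markers were lower in 24 of 28 cases (85.7%, beside 58.4% over all genes), with a median difference of -0.23 (-0.09 on the Cy5 and -0.35 on the Cy3 arrays). Microglia and macrophage markers had a median of -0.11, with 17 of 22 lower (77.3%). Of the 22, 1 was lower at an unadjusted p under 0.05 (4.55%, beside 6.44% over all genes), Itgam at -0.43. The part of blood and vessel transcripts in the other results was not tested.

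Genes tied to axon growth itself showed smaller differences. The growth-associated list split into 22 higher and 28 lower members of 50, 0 and 2 of them at an unadjusted p under 0.05, with a median of -0.07. These are 56% lower and 4% lower at that p, beside 58.4% and 6.44% over all genes. With each channel centred on its median 37 of 50 were lower, 8 at that p, with a median of -0.22 against -0.11 over all genes. In that setting 65.5% of all 32178 genes were lower, 1949 of them at that p. Gap43, the growth cone protein, was at 15.23, 14.95, 14.97, 14.89 and 14.91 at day 7 and at 15.08, 15.58, 15.20, 15.22 and 14.83 at day 21, so that the groups overlapped (difference 0.19 ± 0.14, SE). Stmn2, a microtubule regulator of growth cones, differed by -0.01 ± 0.10. The injury-induced transcription factors Atf3, Jun and Sox11 gave -0.30 ± 0.26, 0.10 ± 0.16 and -0.27 ± 0.13 (SE). Itga7, an integrin of regrowing axons, gave -0.51 ± 0.14 (SE) with another probe at 0.07, and Cntn2, an axonal adhesion molecule, gave -0.49 ± 0.18 (SE).

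Growth factors and chromatin genes linked to this system in earlier work had adjusted p-values from 0.617 to 0.969 by limma. Bdnf, a neurotrophin, differed by 0.30 ± 0.23 (SE), with another probe at 0.09. Igf1, an insulin-like growth factor, differed by 0.02 ± 0.17 (SE), while its dimmer probes gave -0.26, -0.31 and -0.17. Gdf10, a secreted factor of the TGF-beta family, differed by -0.12 ± 0.28 (SE). Atrx, a chromatin remodeller, gave 0.50 ± 0.46 (SE), with day 7 replicate 1 at 8.75 and the other day 7 animals from 10.74 to 11.52. Among 56 growth factor genes 37 were lower and 19 higher, 6 and 2 of them at an unadjusted p under 0.05. These are 66.1% lower, and 10.7% and 3.57% at that p, beside 58.4%, 6.44% and 2.52% over all genes. The smallest p-values were those of Bmpr1a, a bone morphogenetic protein receptor (-0.55 ± 0.17), and Tgfb2 (-0.66 ± 0.22, SE). The neuropeptide Npy ranged from 11.94 to 13.61 at day 7 and from 11.42 to 14.43 at day 21.

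Guidance genes went both ways, 20 up and 19 down of 39 by value (48.7% lower, beside 58.4% over all genes), and their median was 0.01 (-0.02 with centred channels). Plxnd1, a semaphorin receptor, was at 8.60, 8.78, 7.97, 8.42 and 7.91 against 7.16, 7.4, 7.72, 7.85 and 7.57, and differed by -0.79 ± 0.20 (SE), with another probe at -0.13. Unc5c, a netrin receptor, gave -0.70 ± 0.20 (SE), and its groups overlapped. The receptors of growth inhibition Lingo1 and Rtn4r gave -0.07 ± 0.18 and -0.23 ± 0.22 (SE), Epha4 0.13 ± 0.17 and its ligand Efna5 -0.04 ± 0.34 (SE), the last with day 7 replicate 5 at 8.24 and the other 4 from 6.39 to 6.67.

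Presynaptic genes leaned the other way, with 27 of 45 higher (40% lower, beside 58.4% over all genes). Their median was 0.08, which turned to -0.09 when each channel was centred on its median. Cplx2, a clamp of vesicle fusion, gave 0.54 ± 0.18 (SE), at 8.50 to 9.26 against 9.05 to 9.82. Kcnip1, a subunit of A-type potassium channels, gave 0.57 ± 0.17 (SE), with another probe at 0.41. Scn1a, a sodium channel, gave -0.81 ± 0.22 (SE) in a list of ion channels with 33 of 62 higher (46.8% lower, beside 58.4% over all genes). Genes of energy and protein supply had medians of -0.01 for 67 genes of oxidative phosphorylation and -0.08 for 75 ribosomal proteins. Of these, 50.75% and 70.67% were lower, beside 58.4% over all genes. An unadjusted p under 0.05 was reached by 0 and 2 of them. Both of the 2 were lower (2.67% of the ribosomal proteins, beside 6.44% over all genes). With each channel centred on its median those 2 lists stood at -0.30 and -0.31.

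Upper layer markers, which distinguish neurons of the superficial cortex, were lower in 14 of 18 cases (77.8%, beside 58.4% over all genes). Their median was -0.15 (-0.34 with centred channels), and 4 were lower at an unadjusted p under 0.05 (22.2%, beside 6.44%). In the non-sprouting neurons of the same animals the median was -0.25, with 14 of 18 lower and 5 lower at that p. Cartpt, a neuropeptide precursor, gave -1.50 ± 0.41 (SE; 2.83-fold), at 7.09, 9.15, 8.08, 9.11 and 9.09 against 6.60, 7.16, 6.84, 7.84 and 6.59, with day 7 replicate 1 among the day 21 animals. Deep layer markers stood at a median of -0.19 with 12 of 18 (66.7%) lower. Crim1 of that list was 0.52 ± 0.17 higher (SE), and Bcl11b, a factor of subcortical projection neurons, was at -0.49 ± 0.21 (SE). The layer of each captured cell is not given in the sources used here.

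**Figure D4:**
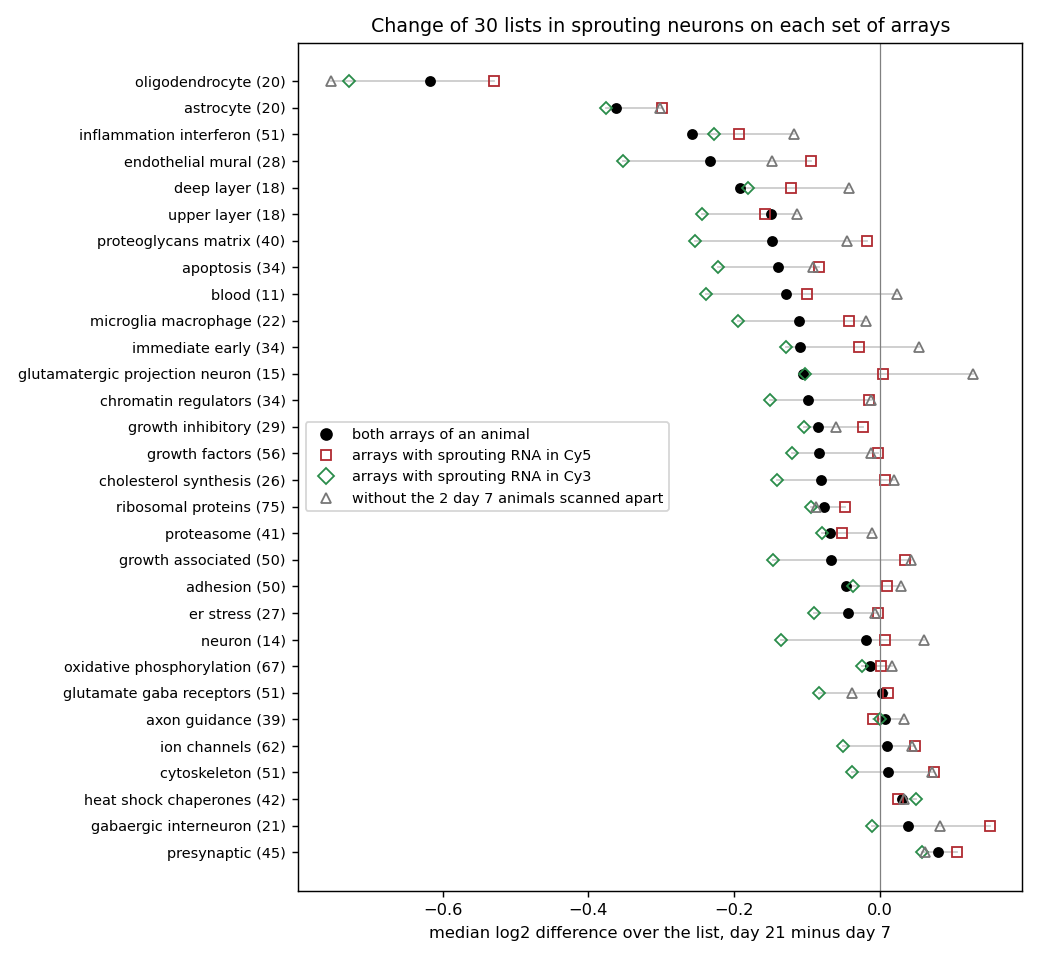
Median log2 difference of each of 30 lists (number of genes tested in brackets), day 21 minus day 7, with both arrays of an animal, the Cy5 arrays, the Cy3 arrays, and without the 2 day 7 animals scanned apart. The oligodendrocyte, astrocyte, and inflammation and interferon lists lie below 0 in all 4, while growth-associated genes change side, from -0.07 with both arrays.

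Day 21 was also compared with day 7 in the non-sprouting neurons of the same animals and arrays, and the difference of both changes was tested. The non-sprouting neurons had 0 genes past the adjusted p and 2927 by unadjusted p, 2118 of them on the lower side and 809 on the higher, with a median difference of -0.05. For the difference between the cell types 0 genes passed, and 1307 (4.06%) fell under 0.05 before adjustment, and the smallest adjusted p was 0.728. Of the 99 genes named by rule 89 had the same sign in both cell types. Both levels come from the same arrays, and most of these genes were chosen by the sprouting difference. The count is therefore no separate result, and the share over all genes is not given here. C1ql3 differed by 0.91 and 0.60, Nsf by 0.90 and 1.06, Cldn11 by -0.79 and -0.58, Ermn by -1.37 and -0.69, and C1r by -0.82 and -0.57 in sprouting and non-sprouting neurons. Rsad2 differed by -1.57 and -0.62, with an unadjusted interaction p = 0.0119 (limma adjusted p = 0.941). Hs3st1 differed by -0.93 and -0.48 (unadjusted p = 0.00306).

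Genes with a current symbol and the smallest interaction p-values are given next, 3 in each direction, and probes without such a symbol hold the smallest ones of all. Htr7, a serotonin receptor, was 0.25 higher in sprouting and 0.54 lower in non-sprouting neurons at day 21 (unadjusted p = 0.00083), with another probe at -0.25 in sprouting neurons. Rbm27, an RNA-binding protein, differed by -0.56 and -0.85, with other probes at -0.09 and -0.23 in sprouting neurons. Bfsp1, a filament protein, differed by 0.24 and -0.21. In the other direction Nrip3 differed by -0.54 and -0.26, Nek1, a kinase of cilia and DNA repair, by -0.47 and -0.16, and Rapgef3, a cAMP-activated exchange factor of Rap1, by -0.35 and -0.06. None passed limma's adjusted p.

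**Figure D5:**
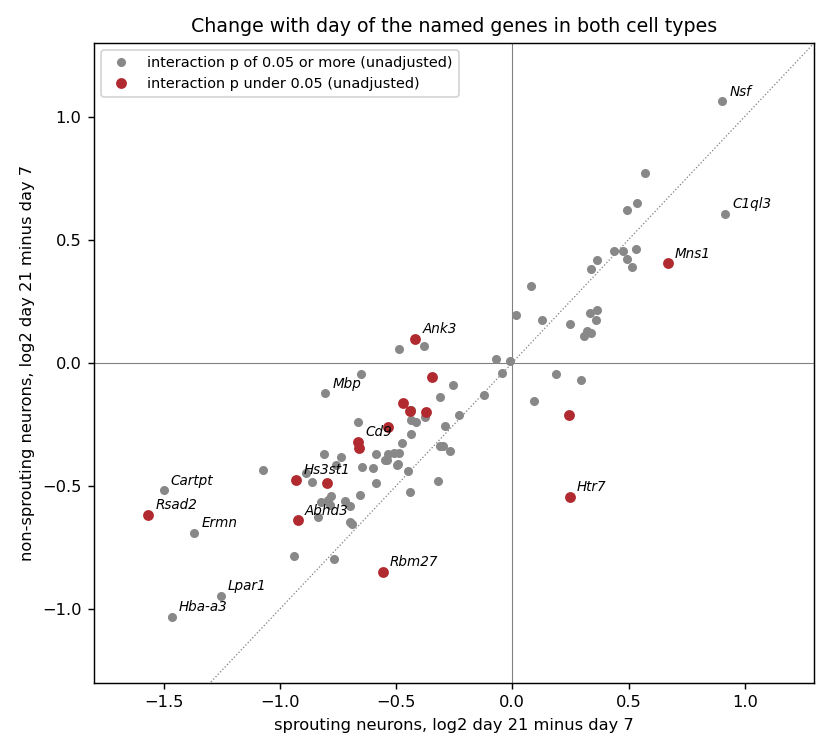
Log2 difference of day 21 minus day 7 in sprouting (horizontal) and non-sprouting neurons (vertical) for the 99 named genes, with genes of an unadjusted interaction p under 0.05 in red and equal change on the dotted line. For 89 of 99 genes the sign is the same in both, and Htr7, at 0.25 and -0.54, is among the exceptions. Both values come from the same arrays and most genes were chosen by the sprouting difference, so the count is no separate result.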

How the data were processed

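The data are 20 two-colour Agilent rat arrays. The deposited scanner files give mean and local background intensities for each spot and dye, made with Agilent Feature Extraction 9.1.3.1 per the file headers. Deposited log2 ratios of both dyes, whose computation is not given in the sources used here, served as an alternative, with 75 values missing.

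Mean intensities were corrected with normexp (offset 50), normalized by loess within and Aquantile between arrays in limma 3.58.1 (R 4.3.3), with 2256 control spots at weight 0 and outlier spots left out. The sprouting channel was averaged over both arrays of an animal. Probes well above background on at least a share of 0.5 of the arrays of 1 day and measured in 3 or more animals per day were kept (36279 of 41012). The brightest probe stood for each of 32178 genes. Names came from the array design, updated through RefSeq gene tables: 10658 probes matched by accession, 4580 by symbol and 3876 by synonym, and 21898 kept the file's name. Median spot signal of the sprouting channel ranged from 98.8 to 305.3 per array, over a background of 29 to 45, and the number of arrays limits precision.

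Day 21 and day 7 animals were compared unpaired with lmFit and eBayes, two-sided, with Benjamini-Hochberg adjustment over all genes. The labels give each animal as a separate sample. The difference between cell types was fitted on the within-animal ratio. On data simulated for this comparison with 32150 genes and independent noise per gene, 4%, 58%, 86% and 98% of genes changed by 0.5, 1, 2 and 3 were recovered, with 3 false calls. Named were up to 12 genes per direction by p and 5 by size, without overlap between animals, 2 per list by p, 14 fixed genes and 3 per direction for the difference between cell types. One gene that the rule names is not reported here. Other list members were picked after their values were seen. The members, the 20 gene lists and the 10 marker lists were chosen with earlier results of these data known. Alternatives covered background, normalization, filters, probe choice, moderation, array sets, scan day, the replicate number and each animal left out. RefSeq promoters of GRCr8 were searched for motifs by their letters. The files' genome build is not given in the sources used here, so no probe is placed by coordinate.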

Additional observations from a re-analysis of the deposited data

Results flagged for a closer look

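In 274 groups of 5 animals (99 named genes, 30 list medians and 8 array measures, each on both days), 21 had a highest or lowest animal whose gap to its neighbour exceeded 0.71 of the group's range, Dixon's critical value, and chance gives about 1 in 20 groups. At day 7, replicate 5 was the low animal for Nek1 (7.00), Psmd3 (8.75), Cd68 (9.72), Sox11 (7.22) and the median of the cytoskeleton list (-0.1416), and the high animal for Efna5 (8.24). Replicate 3 was low for Crebbp (9.65) and Pllp (7.93) and high for Crim1 (11.75), replicate 1 was high for Gap43 (15.23) and low for Atrx (8.75), and replicate 4 was high for Poc5 (9.20). At day 21, replicate 1 was high for Nsf (9.54) and low for Rbm27 (8.58) and Cfl2 (10.53), replicate 2 was low for Lpar1 (9.21), and replicate 4 was high for Psd3 (7.70). The median of the oxidative phosphorylation list was high in day 21 replicate 4 (0.1231), and that of the cholesterol synthesis list was low in day 21 replicate 5 (-0.3026). Saturated probes were most frequent in replicate 1 of both days, at 174 per array at day 7 and 71 at day 21.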

How the results depend on the processing

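Genes past the adjusted p in sprouting neurons numbered 0 in every alternative run except the dye-swapped arrays alone, with 1141 (2224 higher and 5621 lower by unadjusted p), where the non-sprouting neurons had 924. The Cy5 arrays alone gave 278 higher and 502 lower by unadjusted p, scan day as a block 288 and 1047, and leaving out the 2 day 7 animals scanned apart (chosen after seeing the data) 244 and 1098. Higher genes by unadjusted p numbered 453 with only probes well above background on all arrays of a day, 1393 with array weights, and 1492 with both cell types in 1 fit or as separate channels. Leaving out 1 animal gave from 391 (without day 7 replicate 2) to 1910 (without day 7 replicate 5) higher and from 1411 to 3897 lower genes, the last without day 7 replicate 5, and 446 higher without day 7 replicate 1. With a replicate block 1588 were higher, and 56.8% of genes at that p were lower against 71.9% without it. Animals of the same number correlated at -0.32, 0.27, 0.30, -0.15 and 0.51, and such values for animals of different numbers were not computed. These correlations cannot decide whether the numbers pair the animals. The main fit was unpaired because the groups were separate cohorts. With 20 arrays, a random animal block and a dye term, 3 genes passed for the difference between cell types. The scanner software's processed signals lowered the share of lower genes to 62.0%. The cause of these differences was not tested.

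Each named gene was counted under each alternative that measured it. Of these values 3124 kept sign and call, 30 kept the sign and gained the adjusted p, and 51 changed sign. With channels centred on their medians these were Ssx2ip (-0.0216), Mnat1 (-0.0522), Trmt5 (-0.0249), Ndufa9 (-0.106), Pvalb (-0.00163), Jun (-0.257), Igf1 (-0.22) and Npy (-0.257). The mean of probes turned Htr7 (-0.00151), Crebbp (0.0577) and Igf1 (-0.181). Stmn2 turned with processed signals (0.0128), quantile scaling (0.00957) and deposited ratios (0.0117), Igf1 without background subtraction (-0.0289) and Efna5 with array weights (0.249). The Cy5 arrays turned Stmn2 (0.0254) and Gdf10 (0.0306), and the Cy3 arrays Igf1 (-0.121), Lingo1 (0.0628), Efna5 (0.187) and Npy (-0.0307). The scan day block turned Stmn2 (0.0467), Igf1 (-0.127), Gdf10 (0.13), Atrx (-0.00879) and Rtn4r (0.0463). Without the animals scanned apart Stmn2 (0.0466), Atf3 (0.0499), Igf1 (-0.134), Gdf10 (0.131) and Rtn4r (0.062) turned. Leaving out 1 animal at a time, the sign turned within the range of Stmn2 (-0.0505 to 0.0204), Gdf10 (-0.323 to 0.0961), Igf1 (-0.0826 to 0.107), Npy (-0.28 to 0.471), Jun (-0.0226 to 0.195), Lingo1 (-0.18 to 0.0326) and Efna5 (-0.186 to 0.302). Small differences were limited by the 5 animals per day. Low signal does not cover all of these genes, as Mnat1 had means of 11.52 at day 7 and 11.83 at day 21. Why signs turned was not tested.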
